A study of Mus musculus with 28 samples.

Results

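The genes described here are 9 core components of beta and alpha1 adrenergic signalling in the heart: the receptors Adrb1, Adra1a and Adra1b, the stimulatory G protein gene Gnas, the adenylyl cyclases Adcy5 and Adcy6, the receptor kinase Grk5, and the phosphodiesterases Pde4d and Pde3a. They were taken by gene symbol from a table of read counts of mouse ventricular myocardium, where they are 9 of 45513 gene rows. All 9 passed the filter on low counts that left 24273 genes for testing.

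Noradrenaline and adrenaline bind beta1 receptors on cardiomyocytes, which activate the stimulatory G protein and adenylyl cyclase. The resulting cAMP activates protein kinase A and raises the rate and force of contraction, until phosphodiesterases degrade it and receptor kinases uncouple the receptor. Alpha1 receptors act through another G protein, which activates phospholipase C and protein kinase C and is known for its role in cardiac growth.

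The mice were male adult C57BL/6 from 1 supplier. At 6 weeks of age they had either staged 5/6 nephrectomy, which removes most kidney mass and induces chronic kidney disease (CKD), or sham surgery, and on day 7 a single oral gavage of 200 µl of culture medium, with or without live Oxalobacter formigenes (Oxf), a gut bacterium that degrades oxalate. Every group, controls included, ate a diet with 1% hydroxyproline, an oxalate precursor, and 0.5% calcium, so no group shows the heart without that diet. The labels give no time of death. The libraries were 10 sham-vehicle, 6 CKD-vehicle, 5 sham-Oxf and 7 CKD-Oxf, from a design of 10 mice per group. Each library carries its own sample number, and pooling is not stated. The numbers run in blocks by group: 901 to 910 for sham-vehicle, 913 to 920 for CKD-vehicle, 921 to 929 for sham-Oxf and 931 to 940 for CKD-Oxf. Group and number order thus cannot be told apart, and what the order stands for is not stated.

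Library totals ran from 19798965 to 65378162 counts. Sham-Oxf replicate 1 stood apart, with a count in 15879 genes, where every other library had one in 27128 to 33995. The share of counts taken by 7SL RNA (genes Rn7s1 and Rn7s2), which is part of the signal recognition particle, ran from 1.83% to 20.98%. A clock score, the mean log2 CPM (counts scaled to 1000000 per library) of 10 genes of the Dbp and Per phase minus that of 4 genes of the Arntl phase, also differed by group, with 0 set at the sham-vehicle mean. It ran from -2.57 to -0.34 in CKD-vehicle and from -0.16 to 1.88 in CKD-Oxf, so these groups did not overlap in it. Sham-vehicle ran from -1.66 in sample number 901 to 1.95 in 909, and sham-Oxf from 0.77 in 921 to 2.28 in 929. For every member, an Oxf difference adjusted for the score thus cannot tell gavage from clock phase in CKD mice. Cardiomyocyte markers (6 of 6 detected) summed to 43596 to 89733 CPM over all libraries. Markers of fat, which expresses beta receptors, summed to 0.0474 to 362 CPM, and Ucp1, the brown fat marker, was at 0 in libraries of every group.

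Levels were set against each other per kilobase of exon. The length used was that of all annotated exons merged, whichever transcripts the heart uses, so the order depends on it. Adcy6 had the highest mean level of the 9 at 52.2 CPM per kb (SD 15.0, n = 28), and Adcy5 was next among the members at 9.58 (SD 2.90). Adcy6 and Adcy5 are known as the main adenylyl cyclases of cardiomyocytes. Adcy6 exceeded Adcy5 in 28 of 28 libraries, with a ratio of levels per kb of 5.68 ± 1.77 (SD, n = 28) and a range from 3.17 to 11.1. Pde3a at 6.18, Grk5 at 6.08 and Adrb1 at 5.21 CPM per kb followed, and neighbours in this stretch of the order changed places between libraries, Pde3a being above Grk5 in 13 of 28 and Grk5 above Adrb1 in 21 of 28. Pde4d was at 4.27 and Gnas at 3.72 CPM per kb, and the alpha1 receptors closed the order with Adra1b at 2.42 and Adra1a at 2.24. The ratio of Adra1a to Adra1b was 1.01 ± 0.48 (SD, n = 28), above 1 in 11 of 28 libraries. It rests on merged exon lengths of 8728 bases for Adra1a and 3382 for Adra1b. Without division by length their means were 19.5 and 8.17 CPM. The Gnas value is uncertain, because 22.0% of its exon bases in GENCODE M21 lie under the genes Nespas and Gm20721 on the other strand and its exons include those of long alternative transcripts. The overlap was 8.92% for Adcy6 (Gm29331) and 5.82% for Pde3a (Gm28523), both on the other strand, and whether strand was used in counting is not given in the sources used here.

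Adrb1 (ENSMUSG00000035283, GRCm38 chromosome 19, 56722199 to 56733113, + strand) encodes the beta1 receptor and Adcy5 (ENSMUSG00000022840, chromosome 16, 35154877 to 35305738, + strand) one of its effector cyclases. Their promoters are shown because these genes were the members whose level went down most steeply with the 7SL share, described further on, and because both lie in GC-rich sequence. RefSeq windows of 300 bases, 250 before and 50 after a start, were found for 6 of 9 members (10 windows, GRCm38.p6). The GC content was 79.0% for Adcy5 and 72.3% for Adrb1, against a median of 52.7% over 32851 promoters. The other windows had 39.7% for Pde4d, 54.3% for Grk5, 42.3% and 71.3% for Adra1b, and 61.0% to 81.7% for Gnas. None of these other genes had a slope on the 7SL share that passed. Pde3a, whose level rose with the share and passed, had no window. In all, the slope passed for 3 of 9 members, against 37.7% of all genes tested. Over 24259 tested genes with a value, the Spearman rho of the slope with transcript GC was -0.129. A link of promoter GC with the slope was not tested. The 250 bases before each RefSeq start read as follows on the + strand, with the GC box (GGGCGG, or CCGCCC on the other strand) in capitals.

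Adrb1, chr19:56721867-56722116: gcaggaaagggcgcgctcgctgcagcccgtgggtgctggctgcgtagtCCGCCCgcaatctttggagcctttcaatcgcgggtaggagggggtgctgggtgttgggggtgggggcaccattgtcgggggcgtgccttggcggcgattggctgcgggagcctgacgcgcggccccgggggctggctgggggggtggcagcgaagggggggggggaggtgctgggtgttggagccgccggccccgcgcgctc

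Adcy5, chr16:35154614-35154863: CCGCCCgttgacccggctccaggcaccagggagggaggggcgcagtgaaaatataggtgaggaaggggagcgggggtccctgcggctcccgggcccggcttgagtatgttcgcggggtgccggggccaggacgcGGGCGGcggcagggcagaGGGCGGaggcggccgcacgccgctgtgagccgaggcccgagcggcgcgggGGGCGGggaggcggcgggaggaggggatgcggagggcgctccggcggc

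The GC box occurred in 5 of the 10 member windows and in 35.7% of all promoters of this length, both strands searched. It was searched after values had been seen. The E-box CACGTG, the D-box TTATGTAA and the cAMP response element TGACGTCA were in 0 of 10 member windows, and in 7.15%, 0.938% and 1.79% of all promoters, which says only that these letters are not in these windows.

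No adrenergic gene passed the test in any comparison of the 4 groups. The test was edgeR's quasi-likelihood test with Benjamini-Hochberg adjustment over 24273 genes and a threshold of 0.05. Of all genes tested, it called 0.00824% between CKD-vehicle and sham-vehicle, 0.033% between CKD-Oxf and CKD-vehicle, 0% between sham-Oxf and sham-vehicle and 0% between CKD-Oxf and sham-Oxf, and in each 0 of 9 members. It also called 0 of 9 members for the interaction of surgery and gavage (0% of all genes), for the surgery effect averaged over gavage (0%) and for the Oxf effect averaged over surgery (2.81%). At an unadjusted p under 0.05, 1 of 9 members passed in each of the 4 pairwise comparisons, where the share of all genes was 4.46%, 13.1%, 12.6% and 8.23% in the same order. At that level 0 of 9 passed for the interaction (3.55% of all genes), 1 of 9 for the averaged surgery effect (10.6%) and 5 of 9 for the averaged Oxf effect (23%). No member had groups that did not overlap in any pairwise comparison (0 of 9 in each, against 0.128%, 0.478%, 0.227% and 0.272% of all genes in the same order). DESeq2 called Pde3a and limma voom with sample weights called 5 members in at least 1 comparison, given with the genes concerned. Of all 24273 genes, voom called 5336 for the averaged Oxf effect and 3639 between CKD-Oxf and CKD-vehicle. DESeq2 called 2133 and 190 in the same order, so calls by these methods were not particular to the members. Without sham-Oxf replicate 1, the library that stood apart, 0 members passed in the 4 pairwise comparisons and 1, Pde3a, for the averaged Oxf effect. The comparisons share groups, so their members' values are not independent of each other. In whole tissue, fewer cells of a type and less RNA per cell cannot be told apart.

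**Figure D1:**
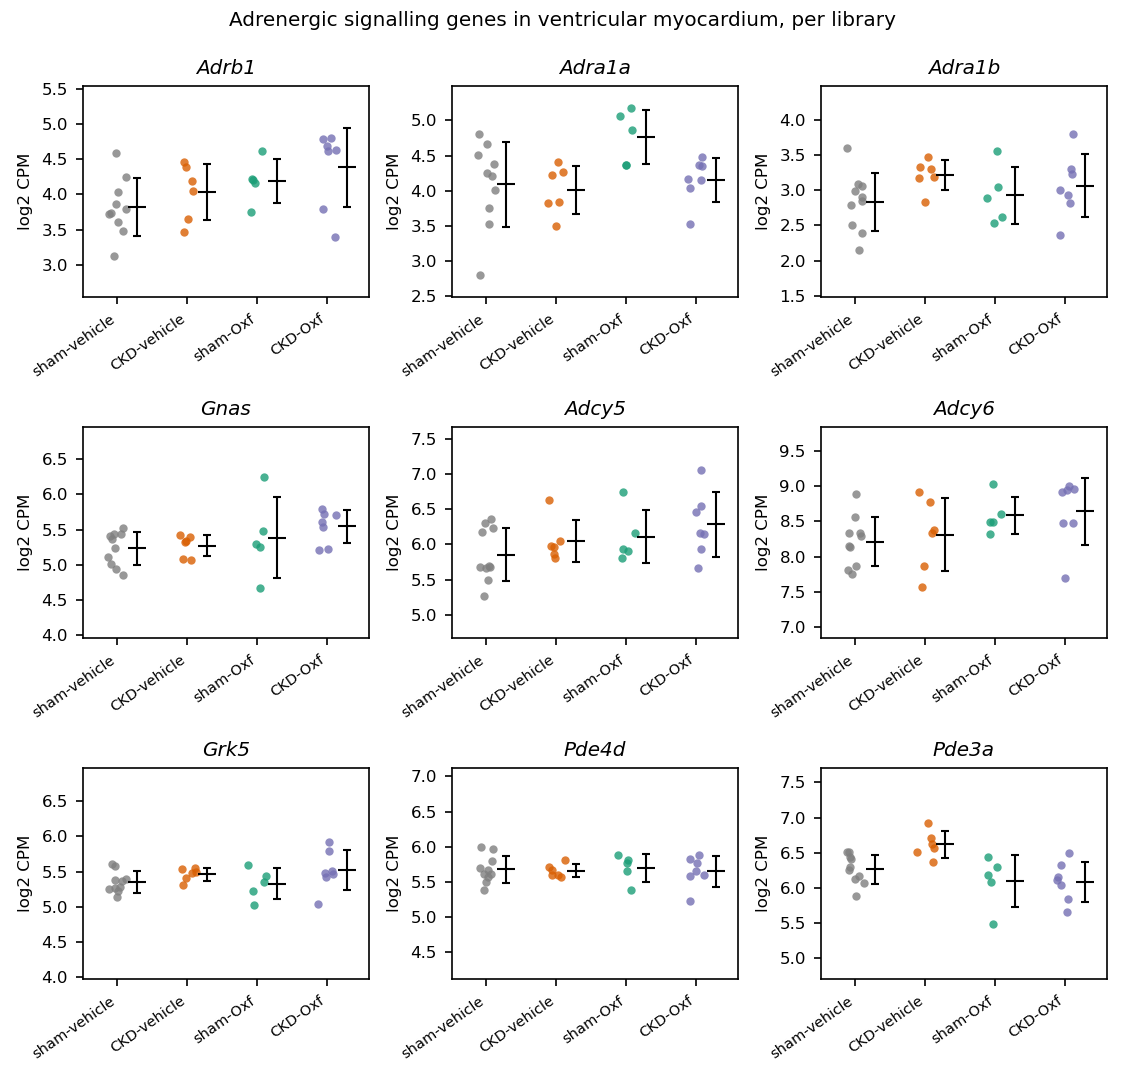
Log2 CPM of the 9 genes (y axis, the same span of 3 log2 units in every panel) in each library, by group on the x axis; points are libraries and the bar beside them is the mean with its SD. Neighbouring groups overlap in every panel; for Pde3a the highest values are those of CKD-vehicle, with 4 of 6 libraries above every sham-vehicle library.

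Among the receptors, Adrb1 had means of 22.1 ± 6.98 CPM in CKD-Oxf (SD, n = 7), 18.5 ± 3.95 in sham-Oxf (n = 5), 16.8 ± 4.40 in CKD-vehicle (n = 6) and 14.6 ± 4.33 in sham-vehicle (n = 10). In sham-vehicle it ran from 8.71 to 24.1 CPM with a median of 13.6, and in CKD-vehicle from 11.01 to 22.0 with a median of 17.3. The sham-Oxf libraries were at 13.4, 17.9, 18.5, 18.4 and 24.5 CPM. CKD-Oxf ran from 10.5 to 27.9 CPM with a median of 24.6, and 5 of its 7 libraries were above every CKD-vehicle library while replicate 4 was below them all. From CKD-vehicle to CKD-Oxf the log2 difference was 0.39 ± 0.22 (SE; adjusted p = 0.452 by edgeR), and that between sham-Oxf and sham-vehicle 0.35 ± 0.22 (adjusted p = 0.518). The former was 0.24 with the clock score as covariate, and the latter 0.09 with the 7SL share and 0.22 without sham-Oxf replicate 5. Averaged over surgery the Oxf difference was 0.37 ± 0.16 log2 units (95% confidence interval 0.05 to 0.69, adjusted p = 0.157 by edgeR). By limma voom it was 0.46 and passed (adjusted p = 0.0103). With the 7SL share as covariate it was 0.18 (adjusted p = 0.52 by edgeR), and with the clock score 0.24 (adjusted p = 0.842 by edgeR). The surgery difference for Adrb1 in vehicle mice was 0.21 ± 0.21 (SE; adjusted p = 0.955 by edgeR), and averaged over gavage it was 0.23 ± 0.16 (adjusted p = 0.617 by edgeR).

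Adra1a (ENSMUSG00000045875, chromosome 14, 66635251 to 66771168, + strand), the alpha1A receptor, had its largest values in sham-Oxf. Those 5 libraries were at 28.9, 20.5, 20.6, 36.1 and 33.4 CPM. Sham-vehicle ran from 6.91 to 27.8 CPM with a median of 18.7, CKD-vehicle from 11.3 to 21.1 with a median of 16.4, and CKD-Oxf from 11.5 to 22.2 with a median of 17.9. All 5 sham-Oxf libraries were above the sham-vehicle median and 3 were above its highest library. Of those 3, replicate 1 at 28.9 CPM was the library with few detected genes. All 7 CKD-Oxf libraries were below the sham-Oxf median. The log2 difference between sham-Oxf and sham-vehicle was 0.62 ± 0.22 (SE; 95% interval 0.17 to 1.07), with an unadjusted p of 0.00903 and an adjusted p of 0.256 by edgeR. Between CKD-Oxf and sham-Oxf it was -0.62 ± 0.24 (unadjusted p = 0.0141, adjusted p = 0.428 by edgeR). The interaction of surgery and gavage was -0.47 ± 0.32 (adjusted p = 1.00 by edgeR), so a different response of CKD and sham mice was not shown. Adding the clock score as covariate made the sham-Oxf difference 0.37 ± 0.27 (adjusted p = 0.704 by edgeR), and with the 7SL share it was 0.61 ± 0.24 (adjusted p = 0.208). Averaged over surgery the Oxf difference was 0.38 ± 0.16 (adjusted p = 0.153 by edgeR), and limma voom gave 0.46 (adjusted p = 0.0394). It was 0.07 once the clock score was added (adjusted p = 0.961 by edgeR). The surgery difference averaged over gavage was -0.39 ± 0.16 (unadjusted p = 0.023, adjusted p = 0.401 by edgeR), and -0.23 with the clock score as covariate.

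Adra1b (ENSMUSG00000050541, chromosome 11, 43774606 to 43901210, - strand), the alpha1B receptor, was the member with the fewest counts, 129 to 655 per library. Its level ran from 4.41 to 13.9 CPM over the 28 libraries, with group means from 7.33 ± 2.14 in sham-vehicle (SD, n = 10) to 9.30 ± 1.33 in CKD-vehicle (n = 6). The log2 difference between those groups was 0.34 ± 0.19 (SE; 95% interval -0.05 to 0.74, adjusted p = 0.955 by edgeR), with 5 of 6 CKD-vehicle libraries above the sham-vehicle median, and it was 0.02 with the clock score as covariate. Its averaged Oxf difference was within 1 SE of 0. The ratio of Adra1a to Adra1b per kb was 1.48 ± 0.49 in the 5 sham-Oxf libraries (SD) and 1.06 ± 0.52 in the 10 sham-vehicle libraries. It was 0.883 ± 0.379 in the 7 CKD-Oxf and 0.709 ± 0.241 in the 6 CKD-vehicle libraries, with overlapping ranges.

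Gnas (ENSMUSG00000027523, chromosome 2, 174284320 to 174346744, + strand) encodes the stimulatory G protein alpha subunit. Its means were 47.1 ± 7.45 CPM in CKD-Oxf (SD, n = 7), 44.6 ± 18.8 in sham-Oxf (n = 5), 38.8 ± 4.01 in CKD-vehicle (n = 6) and 38.0 ± 6.08 in sham-vehicle (n = 10). The sham-Oxf libraries held both extremes of the series, 25.3 CPM in replicate 1, the library with few detected genes, and 75.8 in replicate 3. Of the 7 CKD-Oxf libraries, 5 were above every CKD-vehicle library. The log2 difference between them was 0.28 ± 0.17 (SE; adjusted p = 0.468 by edgeR). The averaged Oxf difference was 0.26 ± 0.12 (unadjusted p = 0.0366, adjusted p = 0.186 by edgeR), and limma voom gave 0.27 (adjusted p = 0.0435). Without sham-Oxf replicate 3 the averaged difference was 0.12, and that between sham-Oxf and sham-vehicle went from 0.23 ± 0.16 to -0.05; without sham-Oxf replicate 1 the latter was 0.38.

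The cyclases had wide ranges within every group. Adcy5 ran from 38.5 to 82.3 CPM in sham-vehicle (median 51.5), from 55.9 to 99.2 in CKD-vehicle (median 62.4) and from 50.8 to 134 in CKD-Oxf (median 71.5). Its sham-Oxf libraries were at 55.8, 60.9, 107, 60.01 and 71.7 CPM. All 6 CKD-vehicle and all 5 sham-Oxf libraries were above the sham-vehicle median, yet 1 of each was above the highest sham-vehicle library. The averaged Oxf difference was 0.26 ± 0.15 (SE; adjusted p = 0.282 by edgeR), 0.04 with the 7SL share as covariate (adjusted p = 0.874 by edgeR) and 0.42 with the clock score (adjusted p = 0.707). It was 0.15 without sham-Oxf replicate 3, the library at 107 CPM, and 0.17 without CKD-Oxf replicate 1, the library at 134. The difference between sham-Oxf and sham-vehicle was 0.25 ± 0.20, and -0.04 with the 7SL share, 0.39 with the clock score, 0.04 without sham-Oxf replicate 3 and 0.17 without sham-vehicle replicate 5.

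Adcy6 (ENSMUSG00000022994, chromosome 15, 98589973 to 98610076, - strand) ran from 217 to 473 CPM in sham-vehicle (median 299), from 189 to 484 in CKD-vehicle (median 327) and from 208 to 515 in CKD-Oxf (median 485). The sham-Oxf libraries were at 360, 358, 321, 390 and 521 CPM. All 5 were above the sham-vehicle median, and 4 of 7 CKD-Oxf libraries were above the highest CKD-vehicle library. The averaged Oxf difference was 0.34 ± 0.15 (SE; 95% interval 0.03 to 0.65, adjusted p = 0.18 by edgeR), and limma voom gave 0.43 (adjusted p = 0.0146). Once the clock score was a covariate this difference was -0.0042, and CKD-Oxf minus CKD-vehicle went from 0.32 ± 0.22 to -0.08, neither past the threshold. Without CKD-vehicle replicate 3 the latter was 0.20.

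Grk5 (ENSMUSG00000003228, chromosome 19, 60889749 to 61095968, + strand), the kinase that phosphorylates activated receptors, and Pde4d (ENSMUSG00000021699, chromosome 13, 108449948 to 109953461, + strand), a cAMP phosphodiesterase tied to beta receptor complexes, were the steadiest members. Grk5 spanned 32.5 to 60.4 CPM over the 28 libraries, its highest library 1.86 times its lowest, and Pde4d 37.6 to 64.0 CPM, 1.70 times. Adcy5 and Adra1a spanned 3.47 and 5.22 times. For Pde4d all 4 pairwise differences were within 1 SE of 0, and the 95% interval between CKD-vehicle and sham-vehicle was -0.24 to 0.18 log2 units. The largest pairwise difference for Grk5 was 0.20 ± 0.12 (SE) between CKD-Oxf and sham-Oxf (95% interval -0.05 to 0.45, adjusted p = 0.738 by edgeR). It was 0.13 without CKD-Oxf replicate 1, without sham-Oxf replicate 2 or with the clock score as covariate.

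**Figure D2:**
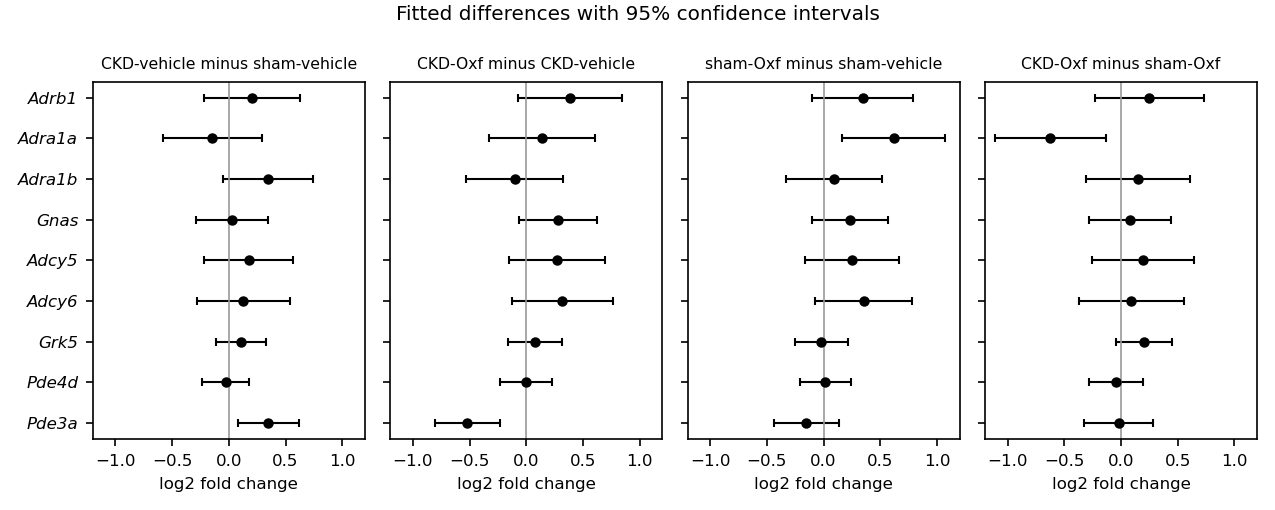
Fitted log2 fold changes (x axis) of the 9 genes (y axis) in the 4 pairwise comparisons of groups, points with 95% confidence intervals, from the edgeR fit of all 28 libraries. Intervals that leave out 0 are those of Pde3a for CKD-vehicle against sham-vehicle and for CKD-Oxf against CKD-vehicle, and those of Adra1a for sham-Oxf against sham-vehicle and for CKD-Oxf against sham-Oxf; none passed after adjustment over all genes.

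Pde3a (ENSMUSG00000041741, chromosome 6, 141249269 to 141507448, + strand), the phosphodiesterase that degrades cAMP near the sarcoplasmic reticulum, came nearest to the threshold. Sham-vehicle ran from 59.1 to 91.5 CPM (median 77.6), CKD-vehicle from 82.8 to 121 (median 96.6) and CKD-Oxf from 50.6 to 89.9 (median 69.0). The sham-Oxf libraries were at 86.7, 44.7, 72.3, 78.5 and 67.6 CPM. All 6 CKD-vehicle libraries were above the sham-vehicle median and 4 were above its highest library. All 7 CKD-Oxf libraries were below the CKD-vehicle median and 6 were below its lowest library, the exception being replicate 4.

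The log2 difference of Pde3a between CKD-vehicle and sham-vehicle was 0.35 ± 0.13 (SE; 95% interval 0.08 to 0.62), with an unadjusted p of 0.0121 and an adjusted p of 0.955 by edgeR. With the clock score as covariate it was 0.15. Over the 28 fits with a library left out it lay between 0.25 and 0.39. The smallest value was without CKD-vehicle replicate 3 (unadjusted p = 0.0569 by edgeR), the library with the highest 7SL share, 20.98%. Between CKD-Oxf and CKD-vehicle it was -0.52 ± 0.14 (95% interval -0.81 to -0.23), with an unadjusted p of 0.000968 and an adjusted p of 0.196 by edgeR. That difference passed by DESeq2 (-0.52, adjusted p = 0.0309), by limma voom (-0.56, adjusted p = 0.00737) and by edgeR without CKD-Oxf replicate 4 (-0.60, adjusted p = 0.0358). This was 1 of 28 edgeR fits with a library left out, and it took the calls over all genes from 8 to 927. In the others Pde3a did not pass, with an adjusted p of up to 0.476 by edgeR, without CKD-vehicle replicate 2. The 2 differences share the CKD-vehicle libraries. Between sham-Oxf and sham-vehicle the difference was -0.15 ± 0.14 (adjusted p = 0.692 by edgeR). It was -0.24 without sham-Oxf replicate 1 and -0.03 without replicate 2, and turned to 0.0729 with the clock score and 0.0151 with the 7SL share as covariate. The interaction was -0.37 ± 0.20 (unadjusted p = 0.0739, adjusted p = 1.00 by edgeR), so a response to Oxf that differs between CKD and sham mice was not shown.

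Averaged over surgery the Oxf difference of Pde3a was -0.34 ± 0.10 (SE; unadjusted p = 0.00224, adjusted p = 0.0583 by edgeR). It passed by edgeR with DESeq2 size factors (adjusted p = 0.0436), by DESeq2 (adjusted p = 0.0119) and by limma voom (adjusted p = 0.00444). It also passed by edgeR in 6 of the 28 fits that left out 1 library, those without sham-vehicle replicate 8 or 9, CKD-vehicle replicate 5, sham-Oxf replicate 1 or 3, or CKD-Oxf replicate 4. Over the 28 fits the difference lay between -0.39 and -0.27. Once the clock score was a covariate it was -0.05 ± 0.15 (adjusted p = 0.953 by edgeR), and that of CKD-Oxf from CKD-vehicle was -0.18 ± 0.19 (unadjusted p = 0.366 by edgeR). Since the CKD groups do not overlap in the clock score, gavage and clock phase cannot be told apart in CKD mice. With the 7SL share as covariate the averaged Oxf difference was -0.21 ± 0.09 (adjusted p = 0.264 by edgeR), and CKD-Oxf differed from CKD-vehicle by -0.43 ± 0.12 (adjusted p = 0.208 by edgeR).

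Within groups, 3 of 9 members followed the 7SL share, against 37.7% of all genes tested, so the count is near the background. Per doubling of the share, Adcy5 fell by 0.24 ± 0.06 log2 units (SE, n = 28; adjusted p = 0.00194 by edgeR) and Adrb1 fell by 0.21 ± 0.07 (adjusted p = 0.0192 by edgeR). Pde3a rose by 0.13 ± 0.04 (adjusted p = 0.012 by edgeR). The call for Adrb1 was lost without sham-vehicle replicate 6 (-0.17, adjusted p = 0.0818 by edgeR), and that for Pde3a without CKD-Oxf replicate 4 (0.10, adjusted p = 0.0704). Many marker genes moved with the share as well. Among those that fell were 4 of 5 fat, 4 of 6 nerve and Schwann cell, 1 of 5 macrophage and 3 of 10 Dbp and Per phase markers, and among those that rose 5 of 5 blood, 4 of 5 liver, 4 of 5 endothelial and 1 of 4 Arntl phase markers. Cardiomyocyte markers went both ways (3 rose and 1 fell of 6), as did mural (1 and 1 of 5) and skeletal muscle markers (1 and 1 of 4 tested). No atrial or fibroblast marker passed (0 of 5 each), and the part of these in the slopes was not tested. The group means of the share were 4.14% for sham-Oxf, 8.81% for CKD-Oxf, 9.78% for sham-vehicle and 13.6% for CKD-vehicle, and CKD-Oxf replicate 4 had 20.6%.

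**Figure D3:**
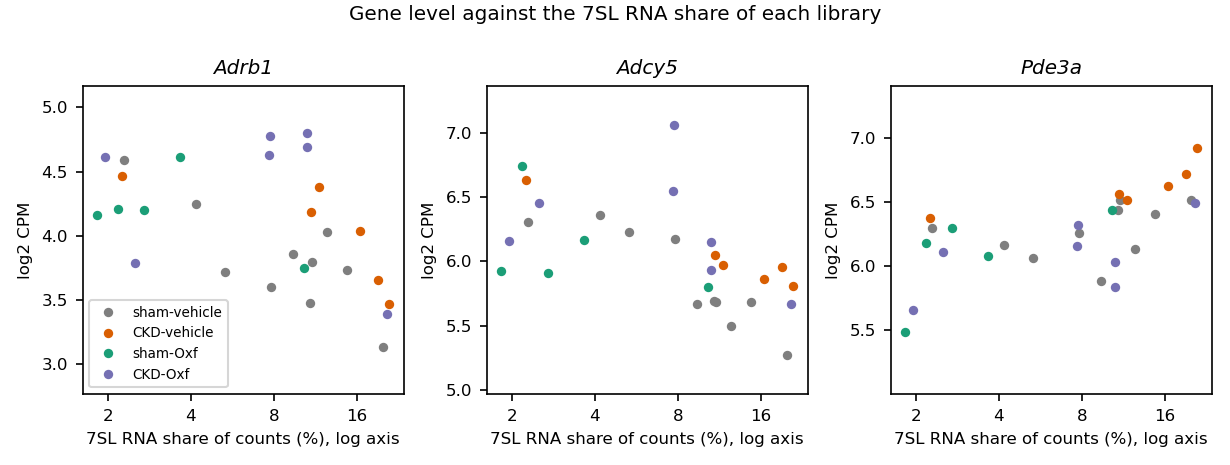
Log2 CPM of Adrb1, Adcy5 and Pde3a (y axis, the same span in each panel) against the 7SL share of counts in each library (x axis, %, log scale), coloured by group. Adrb1 and Adcy5 are lower and Pde3a is higher towards the libraries with the largest shares, which include CKD-Oxf replicate 4 at 20.6%.

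On the clock score 0 of 9 members had a slope within groups that passed, against 0.144% of all genes. The 35 genes behind that share include genes of the score itself, 9 of 10 of the Dbp and Per phase and 3 of 4 of the Arntl phase. At an unadjusted p under 0.05, 4 of 9 members had a slope, against 7.60% of all genes. Among them were Adra1b (-0.21 ± 0.08 log2 units per unit of score, SE, adjusted p = 0.568 by edgeR) and Grk5 (-0.11 ± 0.04, adjusted p = 0.595 by edgeR). The others were Pde3a (-0.12 ± 0.05, adjusted p = 0.63 by edgeR) and Adcy6 (0.16 ± 0.08, adjusted p = 0.654 by edgeR).

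The members did not vary together as 1 block. With group means removed, Adrb1 and Adcy6, a receptor and the most abundant cyclase, had a Pearson r of 0.812 and a Spearman rho of 0.812 over 28 libraries. The permutation p within groups, two-sided, was 1e-05 for each, the smallest that 100000 permutations can give, and 0.00036 after adjustment over 36 pairs. Leaving out the 2 libraries farthest from the median of Adrb1 gave r = 0.817, and within sham-vehicle, CKD-vehicle and CKD-Oxf r was 0.646, 0.990 and 0.891. Adra1a and Adcy6 had r = 0.609 and rho = 0.644 (permutation p = 0.0004 and 0.00043, adjusted 0.0072 and 0.00774), with r = 0.536 without the 2 farthest libraries. Adra1a and Pde4d had r = 0.569 (permutation p = 0.00307, adjusted 0.0368), but rho = 0.534 did not pass (permutation p = 0.00712, adjusted 0.0641). These were 3 of 36 pairs by r and 2 by both measures, and all were positive. The pairs were chosen after their values were seen. Pairs of other genes were not tested in this way, so the count has no background share beside it. With group means left in, 619 of 13905 genes exceeded a rho of 0.8 with Adrb1 and 761 with Adcy6, so high correlations were not particular to this pair. Pde3a ran against Adrb1 (r = -0.490, rho = -0.531, adjusted permutation p = 0.0644 and 0.0641) and against Adcy6 (r = -0.453, rho = -0.504, adjusted permutation p = 0.0739 and 0.0668), neither past the threshold. The libraries also differed in depth, 7SL share and clock score within groups, and the part of these in the pairs was not tested.

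**Figure D4:**
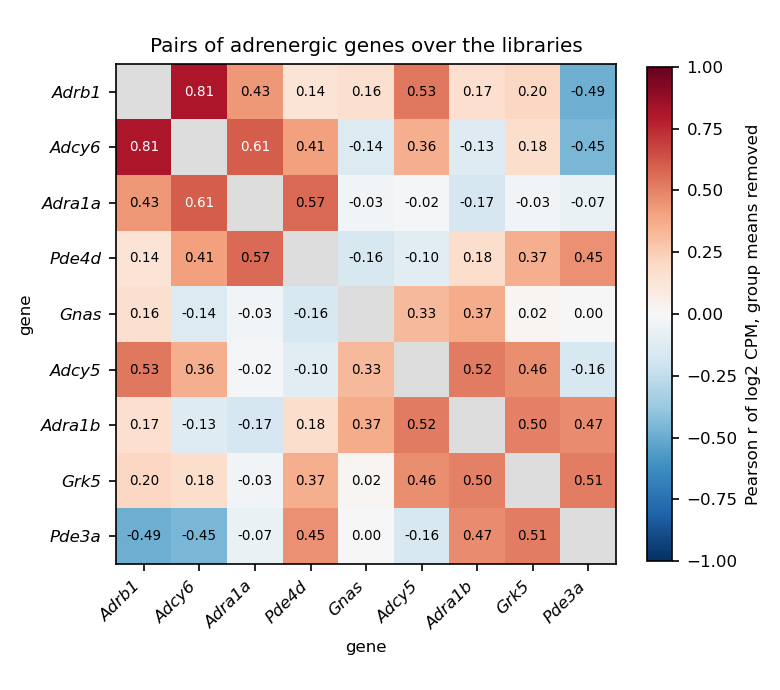
Pearson r of log2 CPM between pairs of the 9 genes over 28 libraries after removing group means; both axes list the genes, and the colour and the printed number give r. Adrb1 with Adcy6 is highest at 0.81, and Pde3a with Adrb1 is lowest at -0.49.

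Over all 28 libraries, with group means left in, the genes whose log2 CPM was most like each member by Spearman correlation are given as a description. Adrb1 had Rnf123, Speg and Pqlc1 (rho 0.94 each) and Adcy6 had Setdb1, Eif2ak4 (0.95 each) and Slc4a2 (0.94). For Adrb1 619 genes and for Adcy6 761 genes exceeded a rho of 0.8, so these patterns are shared by many genes. Pde3a was most like Map3k20 (0.91), Hhatl and Me3, with 179 genes above 0.8, and Adcy5 like Cep170b (0.90), Fat1 and Mllt1, with 21. Adra1a was most like Tmem82 (0.85), Mbd1 and Fnip2, with 6 genes above 0.8, and Adra1b like Prob1 (0.83), Foxn3 and the cardiac transcription factor gene Nkx2-5. No gene exceeded 0.8 for Grk5 (Skida1 0.72, Kcnj11, Ston1), Pde4d (Tnni3k 0.78, Lgals4, Lmo7) or Gnas (Aggf1 0.76, Gnb2, Msl1). Without sham-Oxf replicate 1 all 3 changed for both Gnas (Csnk1g2 0.89, Irf2bp1, Hnrnpa0) and Grk5 (Parvb 0.76, Zbtb42, Pdzrn3), and 1 gene exceeded 0.8 for Gnas.

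The wider pathway was read from 125 further tested genes: other receptors, G proteins and their regulators, cyclases, receptor kinases and arrestins, phosphodiesterases, protein kinase A and its anchors, cAMP-induced transcripts, kinase substrates of contraction, alpha1 effectors and catecholamine enzymes. In the 4 pairwise comparisons, the interaction and the averaged surgery effect, edgeR called 0 of 125. For the averaged Oxf effect it called 3 of 125 (2.40%, against 2.81% of all genes). Itpr3, an inositol trisphosphate receptor downstream of alpha1 receptors, rose by 0.57 ± 0.13 log2 units (SE, adjusted p = 0.0294 by edgeR). Gng5, a G protein gamma subunit, fell by 0.62 ± 0.16 (adjusted p = 0.0373 by edgeR), and Tnni3, the cardiac troponin I that protein kinase A phosphorylates, fell by 0.72 ± 0.19 (adjusted p = 0.0447 by edgeR). Group means of Tnni3 were 661 ± 180 CPM in CKD-Oxf (SD, n = 7), 564 ± 121 in sham-Oxf (n = 5), 1183 ± 440 in CKD-vehicle (n = 6) and 850 ± 356 in sham-vehicle (n = 10). Tnni3 and Itpr3 also had slopes on the 7SL share within groups, 0.36 ± 0.07 and -0.23 ± 0.05 per doubling (adjusted p = 0.00031 and 0.000809 by edgeR). Such slopes passed for 53 of the 125 genes (42.4%), Adrb3 below among them, against 37.7% of all genes tested. For the averaged Oxf effect 7 of 10 clock genes of the Dbp and Per phase rose, 4 of 4 of the Arntl phase fell, 2 of 5 liver markers rose, 1 of 5 fibroblast markers fell and 1 of 6 cardiomyocyte markers, Tnni3 itself, fell. The liver markers summed to 0.415 to 91.7 CPM in CKD-Oxf and 0.836 to 53.3 in sham-Oxf, against 0.572 to 2.02 in CKD-vehicle and 0.67 to 23.3 in sham-vehicle. Their part in the pathway's values was not tested. With the clock score as covariate 0 of all genes passed for this effect, and with 1 library left out between 109 (without CKD-vehicle replicate 2) and 3362 (without CKD-Oxf replicate 4) did.

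The relatives of the members gave the same count of 0 in pairwise tests. Adrb3, the beta3 receptor of fat, ran from 0 to 20.3 CPM, was at 0 in 4 libraries and fell by 2.16 ± 0.34 log2 units per doubling of the 7SL share (adjusted p = 3.26e-05 by edgeR). Adrbk1, which encodes the receptor kinase GRK2, had a mean level of 11.7 CPM per kb, above the 6.08 of Grk5, and an averaged Oxf difference of 0.28 ± 0.08 (adjusted p = 0.0614 by edgeR). Grk6 was at 8.30 CPM per kb with a difference of 0.40 ± 0.12 (adjusted p = 0.0632 by edgeR). Of the other cyclases Adcy4 was at 12.0 CPM per kb, above the 9.58 of Adcy5. Among the phosphodiesterases Pde4a at 9.26 and Pde8a at 7.19 CPM per kb were above the 6.18 of Pde3a.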

How the data were processed

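RNA of ventricular myocardium from 28 mice was sequenced. The authors deposited raw read counts per gene. The submitters' processing notes name STAR 2.6.1d, featureCounts 1.6.3 (Subread), FastQC 0.11.7, MultiQC 1.9 and the mm10 build. The annotation and strand setting are not given in the sources used here. Genes were filtered by filterByExpr (minimum count 10, 4 groups), scaled by TMM and fitted in edgeR 4.0.16 (R 4.3.3) with 1 mean per group over all libraries. P-values were adjusted by Benjamini-Hochberg over 24273 genes, with a threshold of 0.05, and SE is the fold change over the root of F. Slopes came from the same fit with a covariate added. Log2 CPM used a prior count of 2. Alternatives were DESeq2 1.42.0, its size factors, limma 3.58.1 voom with sample weights, no filter, both covariates and each library left out. The fit was tested on simulated data. The members, gene lists and marker lists were chosen with earlier results of these data known. All 9 members are named, with every other pathway gene past the threshold in a group comparison, abundant relatives, and the 3 genes most like each member. Adrb3 and the pairs were chosen after their values were seen. Positions are from GENCODE M21 (GRCm38), which held 45465 of 45513 gene identifiers. Promoters are from RefSeq (GRCm38.p6).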

Additional observations from a re-analysis of the deposited data

Results flagged for a closer look

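Gaps within groups were checked for the 9 genes in 4 groups by Dixon's ratio, the gap to the nearest library over the range of the group. Of 36 gene and group combinations 2 were past the 95% limit, where chance gives about 1 in 20, or 1.8.

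Adcy5 in CKD-vehicle had its highest library, replicate 5 at 99.2 CPM, apart from the next, with a gap of 0.704 of the range of log2 CPM. That library had a 7SL share of 2.26%, the lowest of its group. Adcy6 in CKD-Oxf had its lowest library, replicate 4 at 208 CPM, apart from the others, with a gap of 0.593 of the range. That library had the highest 7SL share of its group, 20.6%, and 27128 detected genes.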

How the results depend on the processing

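Of 40 member values larger than 1 SE, 34 kept their direction under every alternative run for them and 27 also kept their side of the threshold. The slopes among them were not refitted by voom, by DESeq2 or with the other covariate. Of 1320 recomputed values 1295 had the direction and call of the reported one. Most of these came from the 28 fits that left out 1 library, which share nearly all libraries with the main fit. The reversals were, with the clock score as covariate, Adcy6 for CKD-Oxf minus CKD-vehicle (-0.0795) and for the averaged Oxf effect (-0.0042), Pde3a for sham-Oxf minus sham-vehicle (0.0729) and Adra1b for the averaged surgery effect (-0.0034). With the 7SL share they were Adcy5 (-0.0447) and Pde3a (0.0151), both for sham-Oxf minus sham-vehicle. The last was Gnas for the same comparison, between -0.0466 (without sham-Oxf replicate 3) and 0.38. The cause was not tested.

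Members called for CKD-Oxf minus CKD-vehicle were 1 by voom and 1 by DESeq2, and 0 to 1 with a library left out. For the averaged Oxf effect they were 1 with DESeq2 size factors, 5 by voom, 1 by DESeq2 and 0 to 1 with a library left out. With a library left out, the difference of Pde3a ran from -0.60 to -0.45 for the former and from -0.39 to -0.27 for the latter, and slopes on the 7SL share ran from -0.26 to -0.17 for Adrb1 and from 0.10 to 0.16 for Pde3a.

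Counts over all genes moved more. For CKD-vehicle minus sham-vehicle (2 genes) they were 1 without the filter, 0 with the clock score, 22 with the 7SL share, 93 by voom, 29 by DESeq2 and 0 to 2 with a library left out. For CKD-Oxf minus CKD-vehicle (8) they were 5 with DESeq2 size factors, 5 without the filter, 0 with the clock score, 3639 by voom, 190 by DESeq2 and 0 to 927, the last without CKD-Oxf replicate 4. For sham-Oxf minus sham-vehicle (0; 3054 at an unadjusted p under 0.05) they were 2 with the clock score, 141 with the 7SL share, 34 by voom, 131 by DESeq2 and 0 to 20. For CKD-Oxf minus sham-Oxf (0; 1997 unadjusted) DESeq2 gave 100 and voom 0. For the averaged surgery effect (0; 2579 unadjusted) they were 2 with the clock score, 45 with the 7SL share, 126 by voom, 113 by DESeq2 and 0 to 1. For the averaged Oxf effect (681) they were 161 without the filter, 0 with the clock score, 132 with the 7SL share, 5336 by voom, 2133 by DESeq2 and 109 to 3362. For the slope on the clock score (35) they ran from 16 to 46 with a library left out. The interaction gave 0 genes in the edgeR fit (862 at an unadjusted p under 0.05), and 0 by DESeq2 and voom.

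No paired analysis was possible because replicate numbers were given in accession order and name no shared litter, batch or day. With 5 to 10 libraries per group, differences as small as those of Grk5 and Pde4d could not be told from 0.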
